A study of Mus musculus with 3 samples.

Results

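Most of the genes described here encode nuclear subunits of the mitochondrial respiratory chain, and 8 encode assembly factors of complex I. They were chosen by name: every array probe whose RefSeq accession matched a mouse symbol beginning with Ndufa, Ndufb, Ndufc, Ndufs, Ndufv, Uqcr, Cox4 to Cox8 or Atp5, or equal to Sdha, Sdhb, Sdhc or Sdhd. This gave 124 of the 55681 probes and 93 of the 21368 named genes. The name rule itself uses no measured value, but the group was picked with earlier results of these data known. A further 22 genes that meet the name rule, 19 of them pseudogenes, had no matched probe and were not analysed here. No probe was matched to the subunits encoded by mitochondrial DNA. Of the 93 genes 91 were well above background on all 3 arrays. The other 2, Cox7b2 and Cox8c, were not well above background on any array and are given no fold.

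The study compared mouse retina at postnatal day 12 in 3 genotypes, which were wild-type, Crx KO and Otx2 KI, and each genotype had 1 array. Crx encodes a homeodomain transcription factor that activates rod and cone genes, and Otx2 encodes the related factor that acts before it. KO stands for knockout and KI for knock-in, and the labels give no further detail of either allele, of the strain or of how many animals gave each RNA. The series asks how the expression profiles of these genotypes compare. The labels name no replicate, so no test across samples was possible and each difference describes these 3 RNA preparations.

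The respiratory chain is a set of large protein complexes in the inner mitochondrial membrane. Complex I oxidises NADH and complex II succinate, complex III passes the electrons on to cytochrome c, complex IV gives them to oxygen, and complex V uses the resulting proton gradient to make ATP. Photoreceptors pack mitochondria densely into their inner segments, next to the outer segment that senses light, and pay for ion pumping and light detection with much of that ATP.

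Values are scaled signals. A scaled signal is the fluorescence of a probe after the scanner software's background subtraction, divided by the array's 75th percentile and set on the wild-type array's scale. A gene is represented by its brightest probe, and its signal is compared only between arrays, not with that of other genes. Of 59305 spots that were not controls, between 63.5% and 67.1% per array passed the scanner's test for signal over background, and 0 were saturated. All 3 arrays shared 1 slide and 1 scan time. The Crx probe read 9790 in wild-type against 1062 in Otx2 KI and 7177 in Crx KO, and the Otx2 probe read 40886, 63860 and 62981. Because the changed part of each allele is not in the labels, neither probe checks them. Rod genes were far lower in both mutants. Gnat1, the rod transducin gene, read 96776 in wild-type against 781 in Otx2 KI and 1885 in Crx KO, and the summed signal of 8 rod markers was 502303, 154747 and 162696. In whole retina, fewer cells of a type and less RNA per cell cannot be told apart.

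The error of a single respiratory chain gene was judged in 2 ways that stay within these arrays. The scanner software's own error model gave a median of 0.20 for a log2 difference. It came to nearly the same value for every measured member, so it acts as 1 fixed cut and not as a spread measured gene by gene. Uqcrc2, a structural subunit of complex III, was measured at 9 usable spots per array, and these spots spread far less than the error model gave. They ran from 13029 to 13788 in wild-type, from 14991 to 15603 in Otx2 KI and from 14265 to 15353 in Crx KO, with an SD of 0.028, 0.025 and 0.039 on the log2 scale. The wild-type spots did not overlap those of either mutant, although the difference in their mean was only 1.13-fold and 1.09-fold (log2 0.18 and 0.13). Such spots are repeats of 1 RNA preparation and carry nothing about the spread between mice.

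The first comparison set Otx2 KI against wild-type. Respiratory chain genes stayed close to wild-type: of 91 measured genes 94.5% lay within 1.3-fold, a band chosen after the values were seen, where 80.5% of all 15809 measured genes did. Their median log2 difference was -0.05, and that of all genes was 0.03. Lower than wild-type by 2-fold or more was 1 gene, Cox8b, where 2.53% of all genes were, and 0 were 2-fold or more higher, where 1.35% of all genes were. At 1.5-fold the counts were 3 lower and 1 higher (all genes 6.35% and 3.66%). A total of 53 genes lay below 0 and 38 above, or 58.2% below, beside 44.7% of all genes. The share below 0 was 49.5% when arrays were scaled to their median, 65.9% with quantile normalization and 67.0% when centred on inner retina lists. The medians of all genes under these scalings were 0.08, 0.04 and 0.01. The members' median minus that of all genes was -0.08, a gap that scaling by 1 constant per array cannot change. It was -0.09 with quantile normalization, -0.06 with normexp background correction, -0.05 with all probes averaged and -0.11 without the filter on dim probes. For the 77 subunits of the assembled complexes alone, without assembly factors and tissue-restricted isoforms, the median was -0.01 and the gap was smaller, at -0.04.

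The Crx KO array gave a similarly narrow spread, set slightly lower. Of 91 measured genes 91.2% lay within 1.3-fold of wild-type (all 16048 measured genes 75.6%), and the median log2 difference was -0.11, beside -0.01 for all genes. Cox8b and Ndufa4l2 were 2-fold or more lower (2 genes; all genes 3.43%), and 0 were 2-fold or more higher (all genes 1.95%). At 1.5-fold there were 3 lower and 1 higher (8.24% and 5.02%). Below 0 lay 74 genes, or 81.3%, beside 51.5% of all genes. This split depended on the scaling, since 62.6% lay below 0 both with quantile normalization and in the authors' deposited table. There the medians of all genes were 0.02 and 0.05. The members' median minus that of all genes was -0.10, a gap that scaling by 1 constant per array cannot change. It was -0.07 with quantile normalization and -0.09 with normexp background correction. For the 77 subunits of the assembled complexes alone the median was -0.10 and the gap -0.10.

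**Figure D1:**
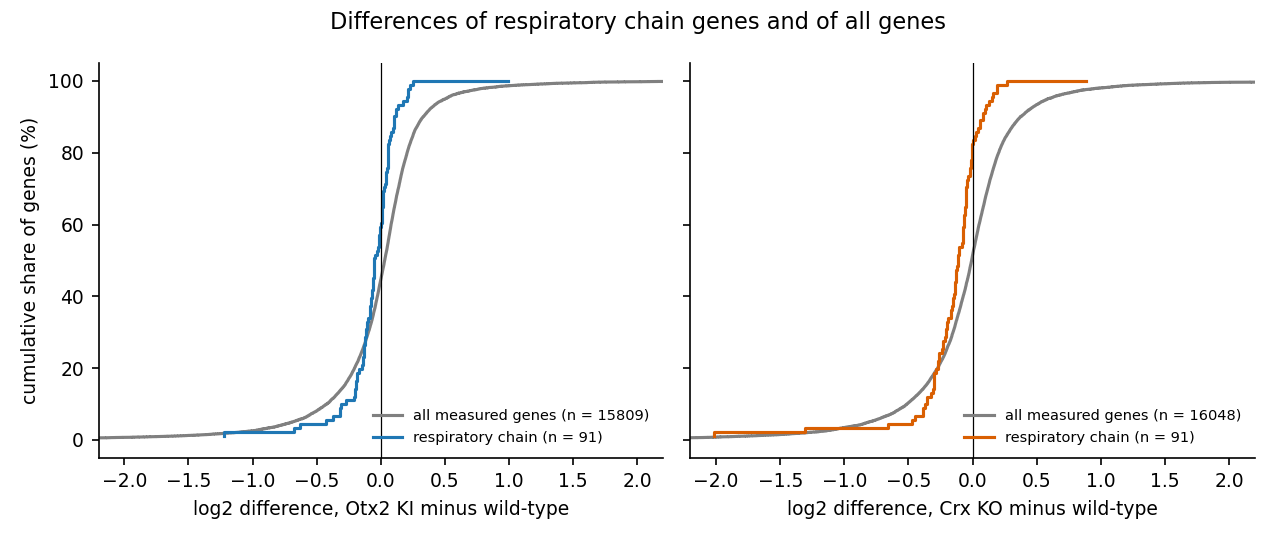
Cumulative share of genes (vertical axis, percent) against the log2 difference from wild-type (horizontal axis), for Otx2 KI on the left and Crx KO on the right; grey lines are all measured genes and coloured lines the 91 respiratory chain genes. The coloured lines are steeper than the grey ones, and the one for Crx KO crosses 0 at 81.3%.

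The same shares were taken among bright genes only. Among the genes with a mean scaled signal of 1000 or more, a limit chosen after seeing the data, 83.6% lay within 1.3-fold in Otx2 KI and 81.3% in Crx KO. The 82 members above that limit had 97.6% and 93.9% within it. That mean is taken over all 3 arrays, so the limit uses the mutant values too. It left out Cox8b and Ndufa4l2, the members 2-fold or more lower, although Ndufa4l2 read 1308 in wild-type. Of the 82 members kept 0 were 2-fold or more lower in either mutant, where 2.4% and 2.77% of the bright genes were. Because of how the limit was set, that 0 is not a separate result. Of the 91 members, 15 in Otx2 KI and 29 in Crx KO differed from wild-type by more than the scanner error, which was close to log2 0.20 for each. That is 16.5% and 31.9% of them, beside 38.1% and 43.2% of all measured genes.

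Across the complexes the 2 comparisons, which share the wild-type array, are given side by side. The 7 nuclear core subunits of complex I, which carry its flavin and iron-sulfur centres, had a median of 0.06 in Otx2 KI and -0.02 in Crx KO. The 29 accessory subunits of complex I had medians of -0.01 and -0.11. For the other complexes the medians in Otx2 KI and Crx KO were 0.01 and -0.07 for complex II (4 genes), -0.08 and -0.17 for complex III (8 genes), -0.01 and -0.08 for complex IV (12 genes), and -0.01 and -0.08 for complex V (17 genes). The 8 complex I assembly factors had -0.11 and -0.14. With other scalings the sign of several of these medians turned, but those of complex III, of the assembly factors and, in Crx KO, of the complex I accessory, complex IV and complex V subunits stayed below 0. No median of a complex lay farther from 0 than that of complex III in Crx KO.

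**Figure D2:**
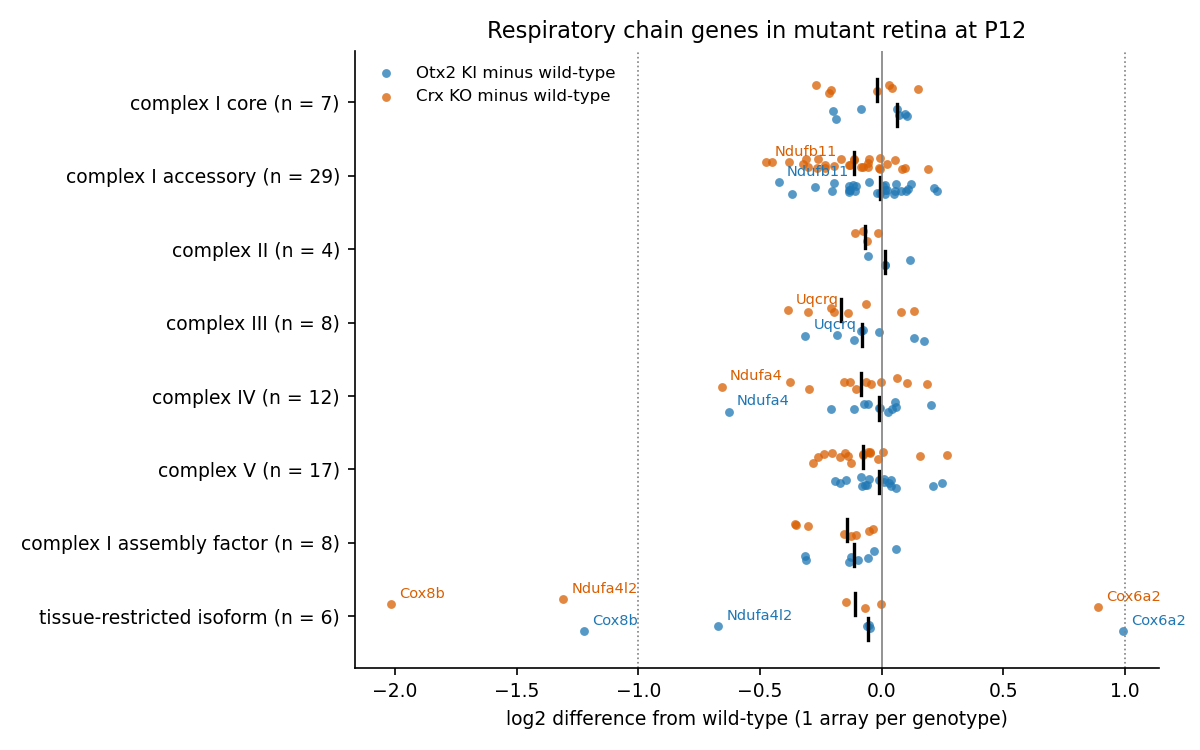
Log2 difference from wild-type (horizontal axis) of each of the 91 measured respiratory chain genes, grouped by complex or role (vertical axis, n is the number of genes); points are single genes (blue for Otx2 KI, orange for Crx KO), black bars are medians, and dotted lines mark 2-fold. Outside the tissue-restricted isoforms no gene reaches 2-fold, and Ndufa4 at -0.63 and -0.66 lies farthest from 0.

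The catalytic core of complex I was nearly level. Ndufv1, which binds NADH and the flavin, read 31732 in wild-type against 33942 in Otx2 KI and 35158 in Crx KO. Ndufs1, the largest iron-sulfur subunit, read 11582, 12095 and 11815, and Ndufs7, which lies at the quinone site, read 18727, 20104 and 19283. In these 3 genes both mutants read slightly above wild-type. Ndufs3, of the quinone-reducing module, read below it, with 20285, 17789 and 16840 (log2 -0.19 and -0.27). Ndufs8 read 3744, 3534 and 3236, and Ndufv2 15134, 15880 and 14911. All 7 core genes lay within 1.3-fold in both mutants, where 80.5% of all genes did in Otx2 KI and 75.6% in Crx KO.

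Among the accessory subunits of complex I, Ndufb11 of the membrane arm was lowest against wild-type in both mutants. It read 51892 in wild-type against 38674 in Otx2 KI and 37338 in Crx KO, or 1.34-fold and 1.39-fold lower (log2 -0.42 and -0.47, scanner error 0.20). The mutants lay close to each other and below wild-type. A much dimmer Ndufb11 probe read 235, 213 and 201 and gave -0.14 and -0.23. Ndufa10, an accessory subunit named after its values were seen, read 5813, 4497 and 4254 (1.29-fold and 1.37-fold lower). Ndufb3, named in the same way, read 16384, 13556 and 13197.

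A few accessory subunits were higher or split the mutants. Ndufv3 read 58092 in wild-type against 68051 in Otx2 KI and 61549 in Crx KO, and its other probe read 1375, 1614 and 1531. Both probes put Otx2 KI highest, with log2 differences from wild-type of 0.23 and 0.23. Ndufb8 read 33979, 30989 and 38749. It was the only one of the 91 genes that lay below wild-type in Otx2 KI and above it in Crx KO (log2 -0.13 and 0.19), and its mutant arrays were 1.25-fold apart. Ndufa3, chosen after its values were seen, went the other way: it read 20395, 19643 and 15640, near wild-type in Otx2 KI and lower in Crx KO (log2 -0.05 and -0.38). Ndufab1, the mitochondrial acyl carrier protein, was dim at 206, 239 and 214.

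Complex I assembly factors help to build the complex and are not part of it. Ndufaf5 was measured by 2 probes that disagreed in size. The brighter read 336 in wild-type against 270 in Otx2 KI and 263 in Crx KO (log2 -0.32 and -0.36). The dimmer read 93.0, 43.5 and 35.1 (log2 -1.10 and -1.40), so it alone would put the gene past 2-fold. Both probes read lower in the mutants, and the size of the difference is not settled by them. Ndufaf6 read 944, 761 and 740 (1.24-fold and 1.28-fold lower). The other 6 assembly factors lay between log2 -0.30 and 0.06.

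Complex II, whose 4 subunits are all nuclear and which also works in the citric acid cycle, was level. Sdha, the flavoprotein that oxidises succinate, read 15320 in wild-type against 15469 in Otx2 KI and 14536 in Crx KO. Sdhb, the iron-sulfur subunit, read 21807, 22035 and 21559. The membrane anchors Sdhc (7826, 7519 and 7246) and Sdhd (12495, 13536 and 11978) also stayed within 1.3-fold on every array pair.

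Complex III held genes on both sides of wild-type. Uqcrq, a small subunit near the quinone-binding part, read 54180 in wild-type against 43557 in Otx2 KI and 41453 in Crx KO (1.24-fold and 1.31-fold lower). Its other probe read 21013, 16703 and 15699 and gave nearly the same differences, log2 -0.33 and -0.42 beside -0.31 and -0.39. Uqcrb, another small subunit, had 3 probes, all lower in both mutants, at log2 -0.12 to -0.28 in Otx2 KI and -0.18 to -0.30 in Crx KO. Uqcrq and Uqcrb were named after their values were seen. Uqcrfs1, the Rieske iron-sulfur protein at the catalytic centre, was on the other side, with 14007, 15366 and 14815 (log2 0.13 and 0.08), as was Uqcrc2 above.

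**Figure D3:**
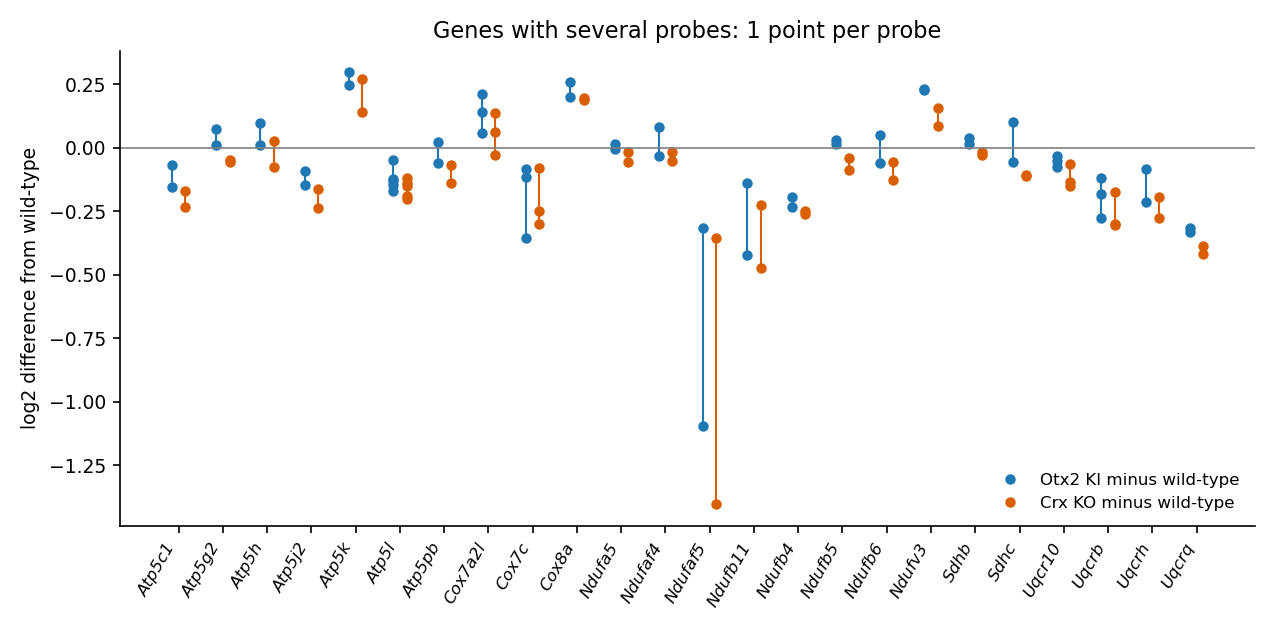
Log2 difference from wild-type (vertical axis) of every probe of the 24 respiratory chain genes with more than 1 probe (horizontal axis); each point is a probe (blue for Otx2 KI, orange for Crx KO) and each line spans the probes of a gene. The probes of Ndufaf5 lie farthest apart, by 0.78 in Otx2 KI and 1.05 in Crx KO, and those of 21 of the 24 genes lie within 0.2 of each other in each comparison.

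Probes of a gene thus gave like answers in most cases. The median SD between probes of a member was 0.05 in Otx2 KI and 0.05 in Crx KO, where over the 4239 genes with several probes it was 0.08 and 0.10. All probes of a gene had the same sign in 19 of 24 genes in Otx2 KI and in 22 of 24 in Crx KO.

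Complex IV is cytochrome c oxidase, and several of its small subunits exist as a widely made form and a form restricted to certain tissues. These pairs held the largest differences. Cox8b, the form of subunit 8 known from heart and skeletal muscle, read 474 in wild-type against 203 in Otx2 KI and 117 in Crx KO. It was lower than wild-type by 2.34-fold (log2 -1.23, scanner error 0.21) and 4.04-fold (log2 -2.02, scanner error 0.21), and the 3 arrays were well separated. With normexp background correction the differences were -1.03 and -1.58. Cox8a, its widely made partner, read 99772, 114692 and 113632, slightly above wild-type in both mutants (log2 0.20 and 0.19), with 0.26 and 0.20 on another probe.

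Ndufa4 and Ndufa4l2 also form such a pair. The name of Ndufa4 comes from complex I, but its protein is a subunit of complex IV, and Ndufa4l2 encodes a related protein known to be induced by low oxygen. Ndufa4 read 32140 in wild-type against 20786 in Otx2 KI and 20367 in Crx KO. Both mutants were lower, by 1.55-fold and 1.58-fold (log2 -0.63 and -0.66) and within 1.02-fold of each other. Ndufa4 was the single subunit of the common set past 1.5-fold. Ndufa4l2 read 1308, 820 and 528. It was 1.59-fold lower in Otx2 KI (log2 -0.67) and 2.48-fold lower in Crx KO (log2 -1.31), so the mutant arrays lay apart here.

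Cox6a2, the heart and muscle form of subunit 6a, was the 1 member past 1.5-fold in the upward direction. It read 110 in wild-type against 219 in Otx2 KI and 204 in Crx KO (1.99-fold and 1.85-fold higher, log2 0.99 and 0.89). The mutants were alike and above wild-type, at a signal low enough for the background correction to matter: with normexp the differences were 0.64 and 0.62. Under 2 scalings it passed 2-fold in Otx2 KI, as given with the alternatives. Its partner Cox6a1 read 146132, 140483 and 139682.

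The other restricted isoforms were level. Cox4i2, a form of subunit 4 found in lung, read 1439 in wild-type against 1387 in Otx2 KI and 1298 in Crx KO. Cox7a1, the muscle form of subunit 7a, read 829, 795 and 791, and Cox6b2, the testis form of subunit 6b, read 608, 588 and 606. Their widely made partners were level too: Cox4i1 read 50677, 52139 and 50581, Cox7a2 read 19391, 19748 and 20839, Cox7b read 23378, 24281 and 22656, and Cox6b1 read 3754, 3721 and 3428. Cox7a2l, which helps complexes III and IV to join in supercomplexes, had 3 probes between log2 0.06 and 0.21 in Otx2 KI and between -0.03 and 0.14 in Crx KO. Cox6c, named after its values were seen, was lower in both mutants, with 57491, 49813 and 44330 (log2 -0.21 and -0.38).

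**Figure D4:**
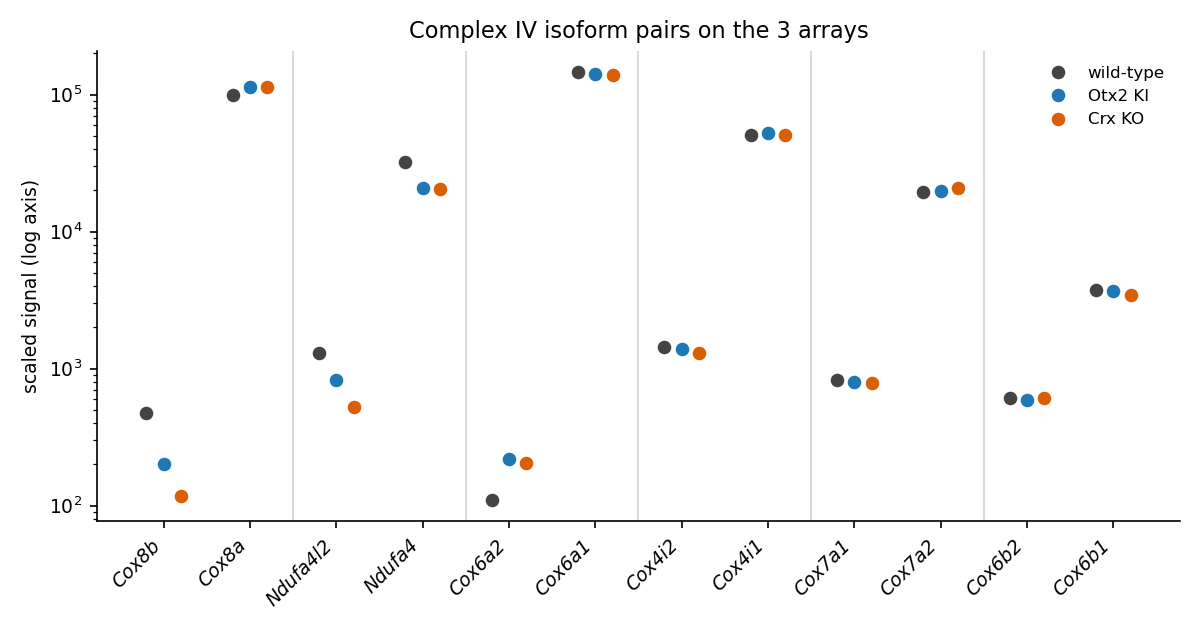
Scaled signal (vertical axis, log scale) on the 3 arrays for 6 pairs of complex IV genes (horizontal axis), with the tissue-restricted form at the left of each pair; each point is 1 array (grey for wild-type, blue for Otx2 KI, orange for Crx KO). Levels are to be compared between arrays of the same gene: Cox8b, Ndufa4l2 and Ndufa4 are lower and Cox6a2 is higher in both mutants, and the other genes lie within 1.3-fold.

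Markers of other cell types moved on the same arrays. All 6 measured pigment epithelium markers were lower than wild-type in both mutants, where 44.7% of all genes were in Otx2 KI and 51.5% in Crx KO. Their medians were -0.95 in Otx2 KI and -1.71 in Crx KO. The summed signal of the list was 22041 in wild-type against 11041 in Otx2 KI and 7120 in Crx KO. Best1, the other marker of that list, was not well above background on any array. Endothelium markers had medians of -0.20 in Otx2 KI and -0.41 in Crx KO, microglia markers 0.14 and -0.31, and the dim lens markers 1.22 and -0.76. The summed signal of the endothelium list changed little (13448, 13357 and 12778), and 1 of its 5 markers, Kdr, lay above wild-type in both mutants. The medians of bipolar, horizontal, amacrine, ganglion and Muller glia markers lay between -0.18 and 0.25. Markers of pericytes and smooth muscle, a list added after seeing the data, were lower in 7 of 7 measured genes in Otx2 KI and 8 of 8 in Crx KO (all genes 44.7% and 51.5%). Their medians were -0.22 and -0.47 and their sums 3736, 3160 and 2885. Of 12 skeletal and heart muscle markers, added likewise, Mb and Myh2 were not well above background on any array, the sums were 1590, 2117 and 1926, and the medians were 0.09 in Otx2 KI (5 measured genes) and 0.09 in Crx KO (6 measured genes). In each mutant 1 of them, the fast muscle troponin gene Tnnc2 (116, 453 and 480), was 1.5-fold or more higher (all genes 3.66% in Otx2 KI and 5.02% in Crx KO). Tnnc2 makes up much of the difference in the sums. Another fast muscle troponin gene, Tnni2, lay on the other side in Crx KO (72.1 in wild-type and 44.4 in Crx KO). The part of these cells in the differences of Cox8b, Ndufa4l2 and Cox6a2 was not tested.

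Complex V, the ATP synthase, had genes of its catalytic head on both sides of wild-type, those named here within 1.3-fold. Atp5a1, the alpha subunit, read 48080 in wild-type against 50043 in Otx2 KI and 48245 in Crx KO. Atp5b, the catalytic beta subunit, read 106242, 100516 and 95727, and Atp5c1, the rotating gamma subunit, read 33719, 32189 and 29935. In Crx KO these were log2 -0.15 and -0.17, below 0 under each scaling tried, and the other Atp5c1 probe gave -0.23. Atp5d, the delta subunit of the rotor, lay above wild-type with 9702, 11231 and 10829 (log2 0.21 and 0.16). The 3 genes for the c subunit of the membrane rotor make the same mature protein and did not diverge: Atp5g1 read 35442, 34149 and 33581, Atp5g2 read 54391, 54715 and 52552, and Atp5g3 read 71133, 70514 and 65237.

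Small membrane subunits of complex V marked the ends of its range. Atp5k, the e subunit, which lies where ATP synthase dimers meet, read 23778 in wild-type against 28235 in Otx2 KI and 28637 in Crx KO. It was 1.19-fold and 1.20-fold higher, and its other probe also lay above 0 in both. Atp5mpl read 48492, 42441 and 39850 and was the lowest of the 17 in both mutants (1.14-fold and 1.22-fold lower). The 5 probes of Atp5l, the g subunit, all lay below wild-type, between log2 -0.05 and -0.17 in Otx2 KI and between -0.12 and -0.20 in Crx KO.

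The direct comparison of the mutants was the narrowest. Of 91 genes 97.8% lay within 1.3-fold (all 15805 measured genes 88.8%), and 0 were past 2-fold in either direction, where 0.645% of all genes were lower in Otx2 KI and 0.677% higher. At 1.5-fold Cox8b (log2 0.79) and Ndufa4l2 (0.64) were higher in Otx2 KI, which is 2 genes (all genes 2.44%), and 0 were lower (all genes 2.31%). The median was 0.08 beside 0.04 for all genes. Crx KO was the lowest of the 3 arrays for 71 of the 91 genes and the highest for 6. The same ranking was not made over all genes, so these counts have no share to stand beside. The order of the mutants changed with the scaling. In this comparison 9.89% of members lay below 0 (all genes 40.3%), but 48.4% did with quantile normalization and 34.1% in the authors' deposited table. The medians of all genes under these 2 were 0.01 and -0.02. On the side of Crx KO, Ndufb8 stood out with a log2 difference of -0.32.

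The other genes of the pathway put these levels in context. Of 16 regulators of mitochondrial biogenesis and of mitochondrial DNA, 3 were 2-fold or more lower in each mutant (all genes 2.53% in Otx2 KI and 3.43% in Crx KO) and 0 were 2-fold or more higher (all genes 1.35% and 1.95%), with medians of 0.15 in Otx2 KI and 0.06 in Crx KO (all genes 0.03 and -0.01). Esrrb, an oestrogen-related nuclear receptor, read 22125 in wild-type against 652 in Otx2 KI and 1666 in Crx KO (log2 -5.08 and -3.73). Polg2, the accessory subunit of the mitochondrial DNA polymerase, read 6977, 1898 and 1690 (log2 -1.88 and -2.05), with -1.12 and -1.31 on its other probe. Ppargc1b, a coactivator of oxidative genes, read 1836, 578 and 640 (log2 -1.67 and -1.52). The mutants lay far below wild-type in each of these genes, whose values were known when they were named.

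The remaining regulators of that list were closer to wild-type. Ppargc1a, the best known coactivator of mitochondrial biogenesis, read 1882 in wild-type against 1203 in Otx2 KI and 1313 in Crx KO (log2 -0.65 and -0.52). Nrf1, Gabpa and Esrra, which act directly on respiratory genes, gave log2 0.06, 0.29 and 0.18 in Otx2 KI and 0.07, 0.13 and 0.13 in Crx KO. Tfam, which packages mitochondrial DNA, read 1482, 1717 and 1523. Polg, the catalytic subunit of the mitochondrial DNA polymerase, read 837, 1201 and 1255 and so lay on the opposite side to Polg2 (log2 0.52 and 0.58).

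Among 13 measured genes that move ATP and energy out of mitochondria, 1 was 2-fold or more lower (all genes 2.53% in Otx2 KI and 3.43% in Crx KO) and 1 higher (all genes 1.35% and 1.95%) in each mutant. Ckmt1, the mitochondrial creatine kinase, read 21188 in wild-type against 7568 in Otx2 KI and 7803 in Crx KO (log2 -1.49 and -1.44). The higher gene, Ucp1, was dim at 23.1, 51.8 and 49.3. Slc25a4, the main ADP/ATP carrier of neurons and muscle, read 71834, 75599 and 74285. Slc25a5, a second carrier gene, read 10460, 7484 and 6916. Vdac1, the outer membrane pore, read 58246, 69023 and 67397.

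Most genes of the other mitochondrial lists also lay near wild-type. The 17 citric acid cycle genes had medians of 0.05 in Otx2 KI and 0.07 in Crx KO. Of them 94.1% lay within 1.3-fold in each (all genes 80.5% in Otx2 KI and 75.6% in Crx KO). The 77 mitochondrial ribosome genes had medians of 0.10 and -0.02. Mrpl19 was the 1 ribosome gene 2-fold or more higher in both mutants (765, 1784 and 1627), where 1.35% of all genes in Otx2 KI and 1.95% in Crx KO were. A total of 0 ribosome genes were 2-fold or more lower (all genes 2.53% and 3.43%). Mrpl49 was the lowest, with 7931, 4435 and 4373 (log2 -0.84 and -0.86), and its other probe gave -0.67 and -0.79. The 21 import and cristae genes had medians of 0.05 and -0.03 and 0 past 2-fold, beside the same shares of all genes. With so few genes in a list, 0 or 1 past 2-fold does not set it apart from those shares. Timm44, a part of the import motor, was lowest at 6463, 3586 and 3377.

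**Figure D5:**
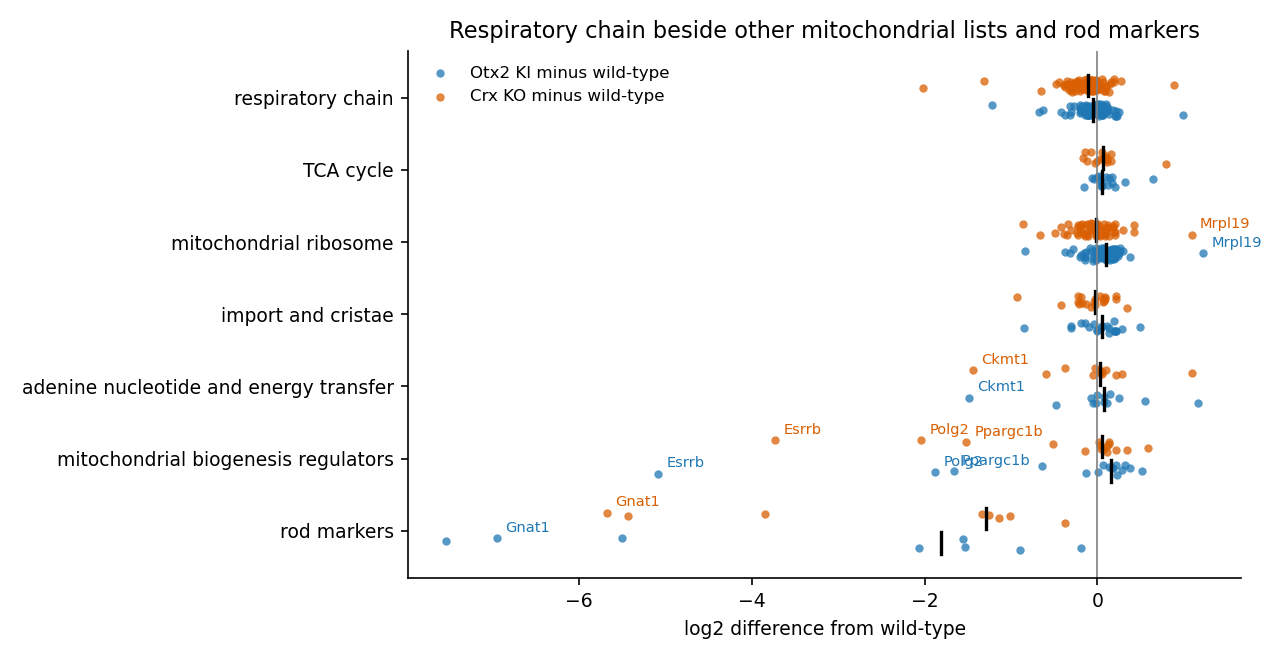
Log2 difference from wild-type (horizontal axis) for the respiratory chain, 5 other mitochondrial lists and rod markers (vertical axis); points are single genes (blue for Otx2 KI, orange for Crx KO) and black bars medians. The medians of the mitochondrial lists lie between -0.11 and 0.15, while the rod markers have medians of -1.81 and -1.30 and single genes such as Esrrb lie far to the left.

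Sequences around the start of the genes were read from RefSeq promoters of GRCm38.p6, each holding 250 bases before and 50 after the start, and matches were counted over both parts. Of the 93 genes 76 had an entry, with 81 promoters in all. Both strands were searched for the core of the Crx site, TAATCC, and for 4 motifs of factors known for respiratory genes. The Crx core was in 7.41% of member promoters and in 7.06% of all 32851 promoters. The palindromic NRF1 site was in 8.64% and 0.971%, the ETS core TTCCGG, read by GABP, in 35.8% and 14.9%, the YY1 core AAGATGGC in 13.6% and 2.75%, and the element of oestrogen-related receptors, TCAAGGTCA, in 2.47% and 0.423%. Among protein-coding promoters these shares were 6.42% for the Crx core, 1.33% for NRF1, 18.7% for ETS, 3.05% for YY1 and 0.334% for the receptor element. Member promoters had a median GC content of 58.3%, beside 56.3% for protein-coding and 52.7% for all promoters, and the shares were not matched for it. No overlap between motifs was corrected for.

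The 5 stretches below show the 250 bases before the start, 5′ to 3′, with motif matches in capitals, for genes with different behaviour. Cox8b and Ndufa4 were lower in both mutants. Atp5g3 holds the receptor element and was level, Atp5k holds the NRF1 site and read higher, and Ndufa11 holds a Crx core and an NRF1 site and was level.
Cox8b: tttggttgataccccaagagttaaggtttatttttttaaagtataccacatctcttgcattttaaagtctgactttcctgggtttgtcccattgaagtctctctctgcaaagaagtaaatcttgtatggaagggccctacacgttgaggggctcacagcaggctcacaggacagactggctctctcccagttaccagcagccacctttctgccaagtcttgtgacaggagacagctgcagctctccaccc
Ndufa4: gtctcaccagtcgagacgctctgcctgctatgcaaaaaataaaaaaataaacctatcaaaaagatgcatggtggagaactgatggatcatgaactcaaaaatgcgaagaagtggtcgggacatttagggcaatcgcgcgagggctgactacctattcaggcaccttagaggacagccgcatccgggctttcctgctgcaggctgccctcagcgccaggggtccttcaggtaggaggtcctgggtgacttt
Atp5g3: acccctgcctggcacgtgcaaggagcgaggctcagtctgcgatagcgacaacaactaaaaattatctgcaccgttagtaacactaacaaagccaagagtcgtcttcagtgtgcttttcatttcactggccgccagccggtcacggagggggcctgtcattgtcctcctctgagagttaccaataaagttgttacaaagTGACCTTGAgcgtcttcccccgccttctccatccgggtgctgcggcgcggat
Atp5k: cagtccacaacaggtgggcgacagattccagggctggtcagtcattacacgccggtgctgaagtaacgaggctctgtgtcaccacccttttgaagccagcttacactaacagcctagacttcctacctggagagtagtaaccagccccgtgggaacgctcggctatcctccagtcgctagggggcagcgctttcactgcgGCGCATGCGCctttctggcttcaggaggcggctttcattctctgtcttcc
Ndufa11: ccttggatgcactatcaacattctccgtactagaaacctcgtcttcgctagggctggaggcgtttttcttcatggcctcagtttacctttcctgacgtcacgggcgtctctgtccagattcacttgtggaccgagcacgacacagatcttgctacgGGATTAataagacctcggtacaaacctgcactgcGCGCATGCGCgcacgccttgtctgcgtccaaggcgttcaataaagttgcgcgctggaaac
In GRCm38.p6 these lie at chr7:140900447-140900696 (Cox8b), chr6:11907451-11907700 (Ndufa4), chr2:73911327-73911576 (Atp5g3) and chr5:108434400-108434649 (Atp5k), all on the minus strand, and at chr17:56717512-56717761 on the plus strand (Ndufa11).

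None of the 5 motifs was in the Cox8b and Ndufa4 stretches, which says only that these letters are not in these windows. In Atp5g3 the receptor element, read on the other strand, lay 44 to 52 bases before the start, and its log2 differences were -0.01 and -0.12 on arrays where Esrrb read 22125, 652 and 1666. In Ndufa11 the Crx core, also on the other strand, lay 89 to 94 bases before the start and the NRF1 site 51 to 60. Ndufa11 read 4545 in wild-type against 4586 in Otx2 KI and 4305 in Crx KO. The other members with a Crx core, which are Cox6b2, Cox7a2l, Ndufa12, Ndufb7 and Ndufs4, all lay within 1.3-fold of wild-type in both mutants. That band held 94.5% of the 91 measured members for Otx2 KI and 91.2% for Crx KO. Lying within it therefore does not set the genes with a Crx core apart. Of the other members with an NRF1 site, Atp5k lay above wild-type in both mutants (log2 0.25 and 0.27). The rest lay below wild-type, except Atp5g2 in Otx2 KI at log2 0.01. Among these Ndufaf5 gave -0.32 and -0.36 and Uqcrc1 -0.11 and -0.21. Sdhd, which also holds the receptor element, gave 0.12 and -0.06. A match is a description of the sequence and does not show that a factor binds there. Whether Crx or Esrrb acts on the genes with their motifs was not tested.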

How the data were processed

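RNA from mouse retina at postnatal day 12 was measured on 1-colour (Cy3) Agilent arrays, 1 per genotype. Per the file headers, the scanner files hold intensity values from Agilent Feature Extraction 12.0.3.1, with array design build mm9; the deposited processed signal is an intensity after the software's own background subtraction. The authors' deposited value table held that intensity times 1 constant per array (2.49, 2.54 and 2.61), chosen by a step not given in the sources used here; its values are linear and uncentred.

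Spots marked as outliers (136, 132 and 126) and control spots were left out, replicate spots were averaged, and log2 signal was reduced by each array's 75th percentile. A probe stood for a gene if it was the gene's brightest over the arrays. Accessions were matched without versions to RefSeq genes of GRCm38.p6, which named 28331 probes. A gene counted as measured where it was well above background on both arrays compared. With 1 array per genotype no test, SD between samples or p-value exists, and precision is limited by the number of arrays. Genes are counted at 2-fold and 1.5-fold.

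Members and lists were chosen with earlier results of these data known. Genes were named by rule: members past 1.5-fold, the 4 highest and 4 lowest per comparison, catalytic core subunits, isoform pairs, and up to 2 genes per companion list with the largest difference; the text prints some of these. Every other gene named was chosen after its values were seen. Normexp (offset 50) used the median spot signal; the mean signal that had been planned was not used here. Alternatives were other scalings, normexp, quantile normalization, the authors' table, no filter on dim probes, all probes averaged, and other member sets. Python 3.11.15, numpy 2.4.6, pandas 2.3.3, R 4.3.3 and limma 3.58.1 were used. The steps were tested on simulated data. Some single genes are not reported here.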

Additional observations from a re-analysis of the deposited data

How the results depend on the processing

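No paired analysis was possible because each genotype has 1 array. Among 234 recomputed differences of single respiratory chain genes 228 moved by less than the scanner error and 6 by more: with normexp background correction Cox6a2 gave 0.64 and 0.62 against wild-type and Cox8b -1.58 in Crx KO and 0.54 between the mutants, and with all probes averaged Ndufaf5 gave -0.71 and -0.88. Scaling moved the medians most. The median in Otx2 KI ranged from -0.07 to 0.00 and that in Crx KO from -0.17 to -0.05, and the median between the mutants was 0.0018 with quantile normalization and 0.17 when centred on inner retina lists, where the median of all genes was also 0.12. Counts past 2-fold are small and move with 1 gene. In Otx2 KI the higher count was 1 with array median scaling and 1 with quantile normalization (Cox6a2). Without the filter on dim probes 1 gene was higher in Crx KO than in wild-type and 1 lower in the Otx2 KI to Crx KO comparison (Cox8c, not well above background). With subunits of the assembled complexes only, 0 genes were lower in Otx2 KI and 0 in Crx KO, and likewise 0 and 0 among genes with a mean scaled signal of 1000 or more, an alternative chosen after seeing the data. Both of these member sets leave out Cox8b and Ndufa4l2. At 1.5-fold 3 were lower and 1 higher in Otx2 KI, 1 higher in Crx KO, and 2 were higher on the Otx2 KI side between the mutants. Signal over background limits the dim isoforms and no replicate array bears on any value.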

Other observations

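Proteins that carry electrons between the complexes, or help to assemble them, mostly lay near wild-type. Among 17 genes of cytochrome c, coenzyme Q synthesis and the enzymes that feed coenzyme Q, 0 were past 1.5-fold in either mutant. Of all genes 6.35% were lower and 3.66% higher by that fold in Otx2 KI, and 8.24% and 5.02% in Crx KO. The medians of the 17 genes were 0.02 in Otx2 KI and -0.10 in Crx KO. Cycs, which encodes cytochrome c, read 16327 in wild-type against 15517 in Otx2 KI and 13075 in Crx KO. Complex IV assembly genes had medians of -0.01 (17 measured genes) and -0.05 (18 measured genes), and 8 complex I assembly genes outside the Ndufaf family had -0.05 and -0.17. Of the latter, Acad9 read 2147, 2151 and 1729, so Crx KO alone was lower. The 6 complex III assembly genes had medians of -0.09 and -0.17, and 66.7% lay within 1.3-fold in each mutant (all genes 80.5% in Otx2 KI and 75.6% in Crx KO). Uqcc3, which helps to assemble complex III, read 13471, 9117 and 9331 and was lower in both mutants by more than any complex III subunit (log2 -0.56 and -0.53). The 4 complex II assembly genes had medians of -0.19 and -0.17, and the 2 measured genes of complex V assembly and inhibition 0.04 and -0.09.

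Genes known to respond to low oxygen, a list added after seeing the data because Ndufa4l2 is such a gene, had medians of -0.08 in Otx2 KI and -0.31 in Crx KO over 10 measured genes, and 2 were 1.5-fold or more lower in Crx KO (all genes 8.24%). These 2 are Ldha and Slc2a1. Below wild-type lay 7 of the 10 in Otx2 KI and 8 in Crx KO (all genes 44.7% and 51.5%). Vegfa (4027, 3935 and 4318) and the dim Egln3 (60.6, 72.5 and 61.9) read above wild-type in Crx KO. Ldha, the lactate dehydrogenase subunit, read 181978 in wild-type against 141621 in Otx2 KI and 113710 in Crx KO, and Slc2a1, the glucose transporter, read 14498, 9970 and 9338. Their relation to Ndufa4l2 was not tested.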
